A study of Mus musculus with 8 samples.

Results

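Early organoids of mouse cervix grown without Wnt factors were compared with early organoids grown with them, to see which transcripts differ with the medium. Of the 8 arrays of the series, the 4 labelled as early organoids were used. Both Wnt-proficient arrays came from later passages, mouse mC012 at passage 15 and mouse mC017 at passage 10, and both Wnt-deficient arrays, from mice mc028 and mc029, came from passage 2. Probes counted as members of the comparison when both arrays of at least 1 of these 2 groups had marked them well above background, and 26965 of 55681 probes did. Each medium had its own slide, its own mice and its own passages, so that medium, slide, mouse and passage cannot be told apart in any value given here. A probe that passed only through the medium in which it was bright can hardly be called in the other direction, and calls are therefore given by detection class.

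The organoids were grown from the cervical epithelium of adult female wild-type BALB/c mice. Single cells were seeded in Matrigel, and RNA was taken on day 3 for early organoids (EO) and after 2 weeks for differentiated organoids (DO). Both media held EGF, noggin, FGF10, nicotinamide, a ROCK inhibitor and an inhibitor of the TGF-beta receptor kinase, and the Wnt-proficient medium also held medium conditioned by cells that secrete WNT3A and R-spondin 1. The labels name the tissue only as cervix, and the methods of the study list the mouse organoids as ectocervical in both media. The outer cervix carries a stratified squamous epithelium with basal stem cells, and the canal a single layer of columnar cells. Wnt proteins bind Frizzled receptors and free beta-catenin to act with TCF and LEF factors at target genes, many of which, such as Axin2, feed back on the pathway. R-spondins prolong the signal through Lgr receptors.

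Signal was stronger on the Wnt-proficient arrays. The 75th percentile of the processed signal was 840 on mC012 and 752 on mC017, against 249 on mc028 and 271 on mc029. Of all probes, 49.3% and 50% were well above background on the Wnt-proficient arrays and 43.5% and 44.4% on the Wnt-deficient arrays. No spot was saturated, and the 4 arrays had between 171 and 277 outlier spots. After normalization the arrays of a medium were closer to each other than to those of the other medium. The difference between mC012 and mC017 had an SD of 0.29 on the log2 scale over the member probes, that between mc028 and mc029 0.45, and differences across media 0.81 to 0.93. Between mC012 and mC017, 78 probes differed by over 1.5, between mc028 and mc029 291, and across media between 1511 and 2166. All values that follow are normalized log2 intensities of single arrays with n = 2 a medium, given for mC012 and mC017 and then for mc028 and mc029. Fold changes are Wnt-deficient minus Wnt-proficient, and a standard error, where given, is that of the difference.

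In Wnt-deficient medium small proline-rich genes of the cornified envelope (9 of 12 called, 6 of them seen in both media) and kallikreins (5 of 11, 2 of them seen in both) were higher, and laminins (4 of 7, all seen in both) and the EGF receptor ligands Ereg and Areg were lower. A gene is called seen in a medium when both arrays had it well above background. The called Hox genes of cluster A (7 of 11) and cluster D (6 of 6) were all lower, and none of these 17 genes was seen in both media. The basal keratins Krt5 and Krt14 were not called, nor was Krt15 at -2.17. Of 19 basal squamous genes 2 were called, both lower, with a median log2 fold change of -0.45. Among 24 cell cycle genes limma called 0, against 957 of 14519 over all genes. In that list 4 had an unadjusted p under 0.05, against 6487 of 14519 over all genes, and the median was 0.35. A difference was called when its adjusted p was below 0.05 and its size above 1.5 on the log2 scale. Of 26950 probes with a fitted difference 1439 were called, which is 5.34%, 694 of them higher and 745 lower in Wnt-deficient medium. Taken as 1 probe per gene, 957 of 14519 genes were called (6.59%), 396 higher (2.73%) and 561 lower (3.86%), and the median log2 fold change over all genes was -0.03. The call of 466 of the 957 genes held without each of the 4 arrays in turn. Without mC012, 194 genes were higher and 340 lower. The share of called probes that were higher was 48.2%. It was 60.3% when the processed signal was set to a common 75th percentile, and 70.8% when the background-corrected signal was scaled to that percentile in place of quantile normalization. The second scaling moved the median of all genes to 0.16 and the first to 0.09. Among genes well above background in both media, 298 of 12460 were higher and 435 lower. Of 404 genes well above background on both arrays of the Wnt-deficient medium alone, 98 were called, all higher, and of 1655 of the Wnt-proficient medium alone, 126 were called, all lower. Among such genes, those well above background on neither array of the other medium have their fold changes given as lower bounds, "at least", from the mean of the bright group over the mean of the dim group, with each dim array set to the higher of the probe's own signal and the lowest signal among probes well above background on that array. Such a bound allows for background alone. It holds for the main scaling with both arrays of each medium, and other settings can give a smaller change. A gene well above background on 1 array of the dim medium is marked as detected on only 1 of 2, and its fitted difference includes 1 value not well above background. Ranges over the scalings cover the settings of background and normalization and are given where a count moves by over 1.5 times. Where a list is given without classes, all its calls were in genes seen in both media. Among the called genes, 103 were higher and 98 lower by over 3 on the log2 scale.

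**Figure D1:**
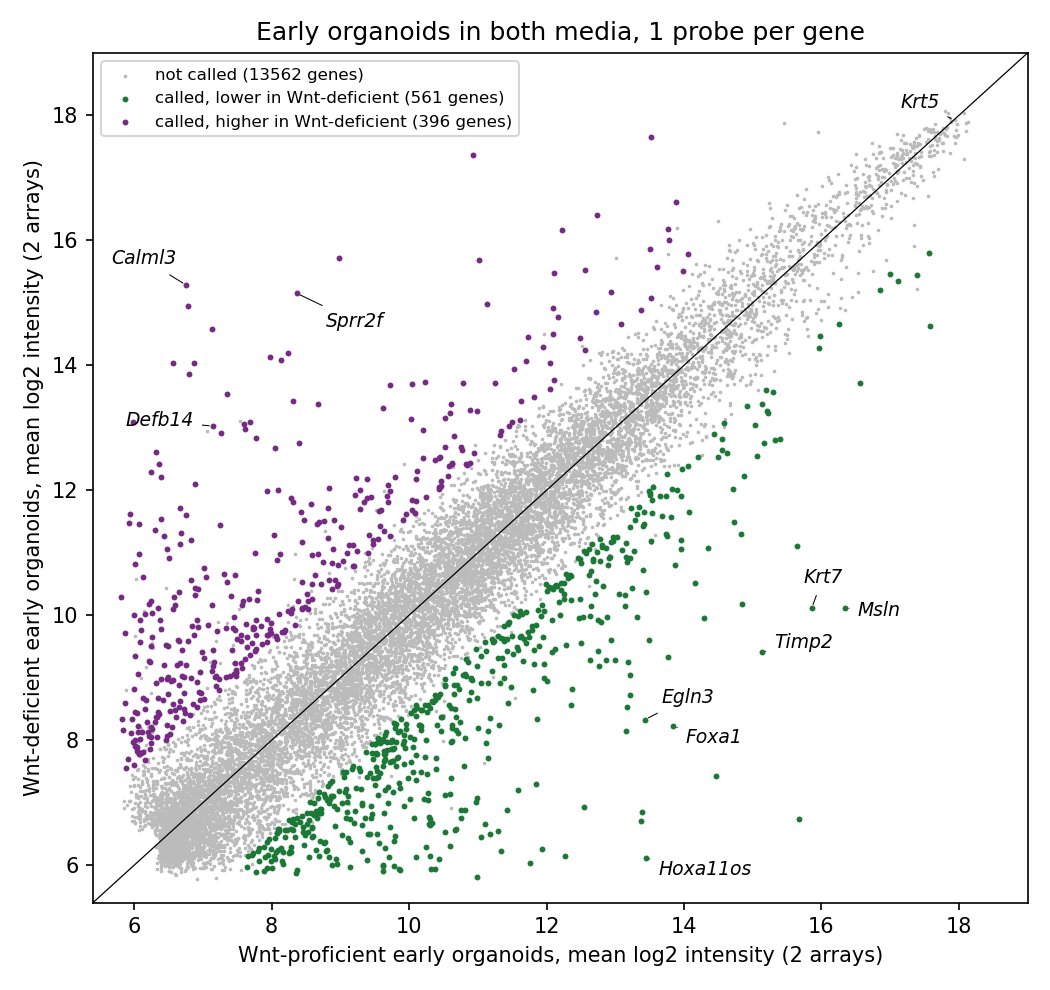
Mean log2 intensity of each of 14519 genes over the 2 Wnt-proficient early organoid arrays (x axis) and over the 2 Wnt-deficient arrays (y axis), 1 probe per gene, with the line of equal values. Purple points are the 396 genes called higher and green points the 561 called lower in Wnt-deficient medium, a split that moves towards higher under both 75th percentile scalings.

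The labels were first set against genes of known cell types. Krt5, the basal keratin of squamous epithelium, measured 17.97 and 17.91 in Wnt-proficient medium and 17.87 and 17.97 in Wnt-deficient medium, and its partner keratin Krt14 17.75 and 17.54 against 17.29 and 17.61. Trp63, the transcription factor that maintains basal cells, measured 13.62 and 13.44 against 13.36 and 13.38. The media overlapped for Krt5 and Krt14 and lay close together for Trp63, and none of the 3 was called (log2 fold changes -0.02, -0.20 and -0.16, adjusted p = 0.935, 0.540 and 0.658). All 19 genes of the basal squamous list were members, and their mean level was 13.88 and 13.56 in Wnt-proficient medium and 13.32 and 13.29 in Wnt-deficient medium. Their median log2 fold change was -0.45 (-0.48 to -0.10 over the scalings), against -0.03 over all genes. The changes of the list ran from -2.24 to 1.84, and the lowest of those not called was that of Krt15, at -2.17. With the probe of largest change per gene 2 were called higher and 2 lower. With the main probe 2 of 19 were called, both lower. Both encode chains of the laminin that anchors basal cells, and the counts were 0 higher and 1 lower without mC012, 0 and 1 without mC017 and 1 and 3 without mc029. Lamb3 measured 15.16 and 14.90 in Wnt-proficient medium and 12.96 and 13.12 in Wnt-deficient medium, lower on mc028 and mc029 without overlap, at -1.99 (adjusted p = 0.000904, standard error 0.16). Lama3, at 13.58 and 12.96 against 10.17 and 11.89, fell by 2.24 (adjusted p = 0.0226, standard error 0.52), and the change was -1.94 without mC012 (adjusted p = 0.147), -2.55 without mC017 (adjusted p = 0.0599) and -1.38 without mc028 (adjusted p = 0.0483). The integrin chains Itga6 at -0.74 (adjusted p = 0.0163) and Itgb4 at -1.07 (adjusted p = 0.00547), which hold basal cells to the basement membrane, were not called, and their differences stayed under 1.5 in size.

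Genes of differentiating squamous cells differed in number and size. Of 43 fitted genes of that list, 22 rose and 2 fell in Wnt-deficient medium, with a median log2 fold change of 2.16 against -0.03 over all genes. Of the 43, 31 were seen in both media, of which 14 rose and 2 fell (median 1.74, and 4 higher and 2 lower without mC012, 7 and 2 without mC017, 6 and 2 without mc028 and 7 and 2 without mc029). Calls held for 8 of the 24 genes without each array in turn, and the counts were 6 higher and 2 lower without mC012, 12 and 2 without mC017 and 13 and 2 without mc029. The stress and hair follicle keratin Krt6b measured 9.21 and 12.65 in Wnt-proficient medium and 16.96 and 17.78 in Wnt-deficient medium. Krt6b rose by 6.43 (adjusted p = 0.0160, standard error 1.35) without overlap, but the value on mC012 lay far below that on mC017, and the change was 4.71 without mC012 (adjusted p = 0.0994), 6.84 without mc028 (adjusted p = 0.0590) and 6.02 without mc029 (adjusted p = 0.0699). Krt10, a keratin of suprabasal cells, measured 8.87 and 9.16 against 11.78 and 11.05, and Krt4, the keratin of suprabasal mucosa, 7.64 and 7.83 against 9.68 and 9.95. Both were higher on mc028 and mc029, at 2.40 (adjusted p = 0.0126) and 2.08 (adjusted p = 0.0231). Without single arrays Krt10 stood at 2.26 without mC012 (adjusted p = 0.0928), 2.54 without mC017 (adjusted p = 0.0506) and 2.04 without mc028 (adjusted p = 0.0678), and Krt4 at 1.99 without mC012 (adjusted p = 0.134), 2.17 without mC017 (adjusted p = 0.0823), 2.21 without mc028 (adjusted p = 0.0750) and 1.95 without mc029 (adjusted p = 0.0900). Krt13, the usual partner of Krt4, measured 15.44 and 15.53 against 15.09 and 14.89 and was not called (-0.50, adjusted p = 0.266). In the keratin family as a whole 6 of 36 genes rose and 3 fell, with a median of 0.44, and the counts were 0 higher and 0 lower without mC012, 3 and 1 without mC017, 2 and 4 without mc028 and 4 and 1 without mc029, and 6 to 10 higher over the scalings. Of the basal keratins, Krt15 at -2.17 (adjusted p = 0.0705) and Krt17 at 0.56 (adjusted p = 0.210) were not called.

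The proteins of the cornified envelope are cross-linked under the membrane of the outermost squamous cells. Of 22 fitted genes of this list 12 rose and 1 fell in Wnt-deficient medium, with a median log2 fold change of 4.02. Of the 22, 11 were seen in both media, of which 5 rose and 1 fell (median 2.53, and 3 higher and 1 lower without mC012 and 3 and 1 without mc029), and the other 7 calls were in genes seen in Wnt-deficient medium only. The mean level of the 21 with a value on all 4 arrays was 7.97 and 8.91 in Wnt-proficient medium and 11.23 on mc028 and 13.51 on mc029, and the counts were 5 higher and 1 lower without mC012. Cnfn, which encodes the envelope protein cornifelin, measured 6.35 and 7.20 in Wnt-proficient medium and 13.80 and 16.09 in Wnt-deficient medium. Cnfn, detected on only 1 of 2 Wnt-proficient arrays, was higher on both Wnt-deficient arrays, by 8.17 (adjusted p = 0.00416, standard error 1.13). The protease inhibitor Spink5 measured 6.95 and 9.32 against 13.57 and 14.59 and rose by 5.95 (adjusted p = 0.00597, standard error 0.92), again with every Wnt-deficient value above every Wnt-proficient value. Lor, which encodes loricrin, the most abundant envelope protein of cornified cells, measured 8.67 and 9.01 in Wnt-proficient medium and 11.72 and 12.36 in Wnt-deficient medium. Lor was higher on mc028 and mc029 by 3.20 (adjusted p = 0.00161, standard error 0.32). Ivl, which encodes the early envelope protein involucrin, measured 10.73 and 10.53 against 8.45 and 7.94 and was the gene of the list that fell, by 2.43 (adjusted p = 0.00294, standard error 0.30), with no overlap. The transglutaminases that join these proteins, Tgm1 at 0.78 (adjusted p = 0.0268) and Tgm3 at 0.55 (adjusted p = 0.165), were not called. The late envelope gene Lce3a measured 5.99 and 5.96 in Wnt-proficient medium, where it was not well above background, and 10.54 and 15.64 in Wnt-deficient medium. Lce3a was at least 115-fold higher (log2 fold change 7.11, adjusted p = 0.0122, standard error 1.37), with mc029 far above mc028, and the log2 value was 7.13 without mC012 (adjusted p = 0.0806), 7.10 without mC017 (adjusted p = 0.0581) and 4.56 without mc029 (adjusted p = 0.00342). Of 7 fitted genes of this family 3 rose, with a median of 5.56, and the counts were 0 higher and 0 lower without mC012, 0 and 0 without mC017, 7 and 0 without mc028 and 5 and 0 without mc029, and 1 to 6 higher over the scalings, with 1 of the 3 calls in genes seen in both media. Of 19 genes of this family with a probe 12 were not members, so that the median of 5.56 depends on the filter. Most of the 12 were well above background on mc029 alone. Lce1d measured 5.88 and 5.83 against 6.03 on mc028 and 12.07 on mc029, and Lce1i 6.02 and 6.16 against 6.20 and 11.09. Lce1c was also detected on 1 Wnt-proficient array, and Lce1m on none. Near-identical Lce3 and Sprr2 copies may bind each other's probes.

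Small proline-rich proteins are envelope cross-linkers encoded in 1 cluster on mouse chromosome 3. Of 12 fitted Sprr genes 9 rose and 0 fell, with a median log2 fold change of 3.58, and the counts were 5 higher and 0 lower without mC012 and 5 and 0 without mc029. Of the 12, 7 were seen in both media, of which 6 rose and 0 fell (median 3.66, and 3 higher and 0 lower without mC012, 3 and 0 without mc028 and 3 and 0 without mc029). Sprr2f measured 8.34 and 8.39 in Wnt-proficient medium and 15.59 and 14.72 in Wnt-deficient medium. Sprr2f rose by 6.79 (adjusted p = 0.00347, standard error 0.89) without overlap. Sprr1a measured 11.90 and 13.58 against 15.97 and 16.84, and Sprr3 6.41 and 7.24 against 10.21 and 12.20. Both were higher on mc028 and mc029 than on either Wnt-proficient array, Sprr1a by 3.66 (adjusted p = 0.00646, standard error 0.58) and Sprr3, detected on only 1 of 2 Wnt-proficient arrays, by 4.38 (adjusted p = 0.00409, standard error 0.60). Sprr2g, at 8.82 and 10.64 against 13.66 and 13.72, rose by 3.96 (adjusted p = 0.00316, standard error 0.50). Sprr1b, at 6.26 and 8.0 against 13.0 and 16.17 and detected on only 1 of 2 Wnt-proficient arrays, rose by 7.46 (adjusted p = 0.0155, standard error 1.55), and this change was 6.59 without mC012 (adjusted p = 0.113) and 5.87 without mc029 (adjusted p = 0.0699). The AP-1 motif TGANTCA was looked for on both strands in the 300 promoter bases that RefSeq gives for 10829 of the 14519 genes. It was present in 15.8% of 285 genes called higher, in 8.58% of 431 called lower and in 6.71% of all, and in 9 of 11 Sprr promoters, those of Sprr1a, Sprr1b and Sprr2f among them. The Sprr genes called higher count singly in the 15.8%, and no share without this cluster was taken. The shares were not tested, and a motif does not show binding. The promoters of Sprr1a (chr3:92485832-92486131, minus strand, GRCm38.p6), Sprr1b (chr3:92438730-92439029, minus strand) and Sprr2f (chr3:92364937-92365236, plus strand) are given with the motif in capitals.
Sprr1a: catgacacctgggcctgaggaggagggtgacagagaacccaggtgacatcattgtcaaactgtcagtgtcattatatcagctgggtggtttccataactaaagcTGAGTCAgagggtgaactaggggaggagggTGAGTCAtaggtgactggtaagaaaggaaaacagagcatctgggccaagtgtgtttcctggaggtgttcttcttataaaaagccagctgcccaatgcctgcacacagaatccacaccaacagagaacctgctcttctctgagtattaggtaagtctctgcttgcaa
Sprr1b: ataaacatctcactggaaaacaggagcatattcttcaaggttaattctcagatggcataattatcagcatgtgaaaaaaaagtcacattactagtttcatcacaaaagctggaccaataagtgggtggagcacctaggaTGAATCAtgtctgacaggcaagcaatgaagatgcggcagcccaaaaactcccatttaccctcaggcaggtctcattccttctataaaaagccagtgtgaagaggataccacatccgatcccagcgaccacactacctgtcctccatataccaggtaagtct
Sprr2f: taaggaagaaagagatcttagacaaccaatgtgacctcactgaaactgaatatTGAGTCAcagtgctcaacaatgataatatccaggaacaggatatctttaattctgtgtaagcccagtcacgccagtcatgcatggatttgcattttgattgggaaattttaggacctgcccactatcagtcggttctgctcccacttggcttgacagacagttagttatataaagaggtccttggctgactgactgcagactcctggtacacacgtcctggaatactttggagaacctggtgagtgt

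Among 8 transcription factors of squamous differentiation, 5 rose and 1 fell, with a median log2 fold change of 1.69, and the counts were 1 higher and 1 lower without mC012, 2 and 1 without mC017, 1 and 1 without mc028 and 2 and 1 without mc029. Prdm1, a repressor active in the granular layer, measured 6.88 and 6.84 in Wnt-proficient medium and 8.63 and 8.53 in Wnt-deficient medium. Prdm1 was higher on both Wnt-deficient arrays, by 1.72 (adjusted p = 0.00149, standard error 0.17). Grhl3, a grainyhead factor of barrier genes, measured 9.36 and 10.03 against 12 and 12.15 and rose by 2.38 (adjusted p = 0.0122, standard error 0.46), with 2.05 without mC012 (adjusted p = 0.0949), 2.46 without mc028 (adjusted p = 0.0515) and 2.31 without mc029 (adjusted p = 0.0523). Gata3 measured 12.55 and 12.72 in Wnt-proficient medium and 9.50 and 9.07 in Wnt-deficient medium. This regulator of lineage choice in squamous and luminal epithelium fell by 3.35 (adjusted p = 0.000794, standard error 0.26), with both Wnt-deficient values below both others. Klf4, at 0.99 (adjusted p = 0.148), was not called. Kallikreins are secreted serine proteases that loosen the contacts of shedding squamous cells. Of 11 fitted genes 5 rose and 0 fell, with a median of 1.99, 4 of the 5 calls held without each array in turn, and the counts were 0 to 1 lower over the scalings. Of the 11, 4 were seen in both media, of which 2 rose and 0 fell (median 3.52). Klk10 measured 6.43 and 6.90 in Wnt-proficient medium and 11.12 and 12.32 in Wnt-deficient medium, and Klk8 7.29 and 7.24 against 11.59 and 14.25. Neither gene's values overlapped between media, and the changes were 5.05 (adjusted p = 0.000828, standard error 0.40) and 5.66 (adjusted p = 0.00330, standard error 0.72). Klk13, at 6.03 and 6.01 against 10.66 and 10.99, and Klk12, at 6.16 and 6.09 against 9.65 and 11.56, were well above background in Wnt-deficient medium only. Klk13 was at least 23.9-fold and Klk12 at least 20.5-fold higher, with adjusted p = 3.17e-05 and 0.00295. Klk11, at 6.10 and 7.19 against 8.81 and 10.37 and detected on only 1 of 2 Wnt-proficient arrays, rose by 2.95 (adjusted p = 0.00908, standard error 0.52), with 2.40 without mC012 (adjusted p = 0.0711). Of 27 serpins, mostly protease inhibitors, 3 rose and 0 fell, with 2 of the 3 calls in genes seen in both media. Their median of 0.10 reached 0.82 under another scaling, and 2 to 6 were higher and 0 to 1 lower over the scalings. Fewer were called higher without mC012 or without mc029, and a fall was called without mc029. The collagen chaperone Serpinh1 measured 6.03 and 6.46 against 9.79 and 10.66, was detected on only 1 of 2 Wnt-proficient arrays and was higher on mc028 and mc029 by 3.98 (adjusted p = 0.00219, standard error 0.44).

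The columnar list gave calls in both directions. Of 30 fitted genes 4 rose and 10 fell, with a median log2 fold change of -0.09 that reached 0.45 under another scaling and so changed sign. The counts were 1 higher and 2 lower without mC012, 1 and 4 without mC017, 1 and 8 without mc028 and 8 and 6 without mc029, and 4 to 10 higher over the scalings. Of the 30, 20 were seen in both media, of which 3 rose and 8 fell (median -0.67, and 1 higher and 1 lower without mC012, 1 and 3 without mC017, 1 and 7 without mc028 and 4 and 5 without mc029). The simple-epithelium keratin Krt7 measured 15.96 and 15.75 in Wnt-proficient medium and 11.91 and 8.31 in Wnt-deficient medium, with mc029 far below mc028. Krt7 fell by 5.75 (adjusted p = 0.0177, standard error 1.24) without overlap, and the change was -5.64 without mC012 (adjusted p = 0.108), -5.86 without mC017 (adjusted p = 0.0729) and -3.95 without mc029 (adjusted p = 0.0558). Krt19, a keratin of columnar and reserve cells, measured 16.13 and 15.16 against 12.60 and 9.62 and changed by -4.54 (adjusted p = 0.0132, standard error 0.89), with -4.05 without mC012 (adjusted p = 0.0999). Krt8, another keratin of simple epithelium, measured 6.54 and 6.47 against 9.26 and 6.36. Its media overlapped, mc028 lay above the other 3 arrays, and Krt8, detected on only 1 of 2 Wnt-deficient arrays, was not called (adjusted p = 0.263). Of 9 keratins and junction genes of columnar cells 4 fell and 0 rose (0 higher and 0 lower without mC012, 0 and 1 without mC017 and 2 and 2 without mc029, and 0 to 2 higher over the scalings). Their mean level was 11.41 and 11.17 in Wnt-proficient medium and 10.54 and 8.68 in Wnt-deficient medium, and the adhesion molecule Epcam was not called at -1.50 (adjusted p = 0.127). Msln, which encodes the surface glycoprotein mesothelin, measured 16.41 and 16.28 in Wnt-proficient medium and 10.66 and 9.57 in Wnt-deficient medium. Both Wnt-deficient values of Msln lay below both Wnt-proficient values, and the change was -6.23 (adjusted p = 0.000957, standard error 0.52). Wfdc2, a secreted protease inhibitor of genital tract epithelium, measured 17.55 and 17.61 against 15.22 and 14.03 and changed by -2.96 (adjusted p = 0.00825, standard error 0.51), with -2.98 without mC012 (adjusted p = 0.0627). Foxa1, a pioneer factor of luminal epithelium, measured 13.94 and 13.74 against 9.72 and 6.72, with mc029 again the lower. Its change of -5.62 (adjusted p = 0.0141, standard error 1.13) became -5.52 without mC012 (adjusted p = 0.0929), -5.72 without mC017 (adjusted p = 0.0612) and -4.12 without mc029 (adjusted p = 0.0509). The purine enzyme Gda measured 9.08 and 9.50 against 12.21 and 11.81 and rose by 2.72 (adjusted p = 0.00244, standard error 0.31) without overlap. Ltf, which encodes lactoferrin, measured 8.79 and 7.83 against 15.75 and 11.11, rose by 5.12 (adjusted p = 0.0360, standard error 1.38) and stood at 5.60 without mC012 (adjusted p = 0.131), 4.64 without mC017 (adjusted p = 0.147) and 2.80 without mc028 (adjusted p = 0.0803). Of 6 fitted claudins, which seal cell contacts, 1 fell and 0 rose, with a median of -0.41 that reached 0.22 under another scaling (0 higher and 0 lower without mC012, 0 and 0 without mC017 and 1 and 1 without mc029, and 0 to 1 higher and 0 to 2 lower over the scalings). Cldn7 measured 12.86 and 13.02 against 11.12 and 8.09, changed by -3.34 (adjusted p = 0.0312, standard error 0.86) and stood at -3.42 without mC012 (adjusted p = 0.141), -3.26 without mC017 (adjusted p = 0.119) and -1.82 without mc029 (adjusted p = 0.0356). Of 4 mucins 1, seen in Wnt-proficient medium only, fell and 0 rose, with a median of -0.12 that reached 0.93 under another scaling (1 higher and 1 lower without mc029, and 0 to 1 higher and 0 to 1 lower over the scalings). The membrane mucin gene Muc16 measured 8.20 and 7.92 against 6.06 and 6.35. With the main scaling it was at least 3.11-fold lower (log2 fold change -1.86, adjusted p = 0.00169, standard error 0.19). This bound did not hold when scaled to the 75th percentile, with a log2 value of -1.27 (adjusted p = 0.00161). Fewer cells of a type and less RNA per cell cannot be told apart.

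**Figure D2:**
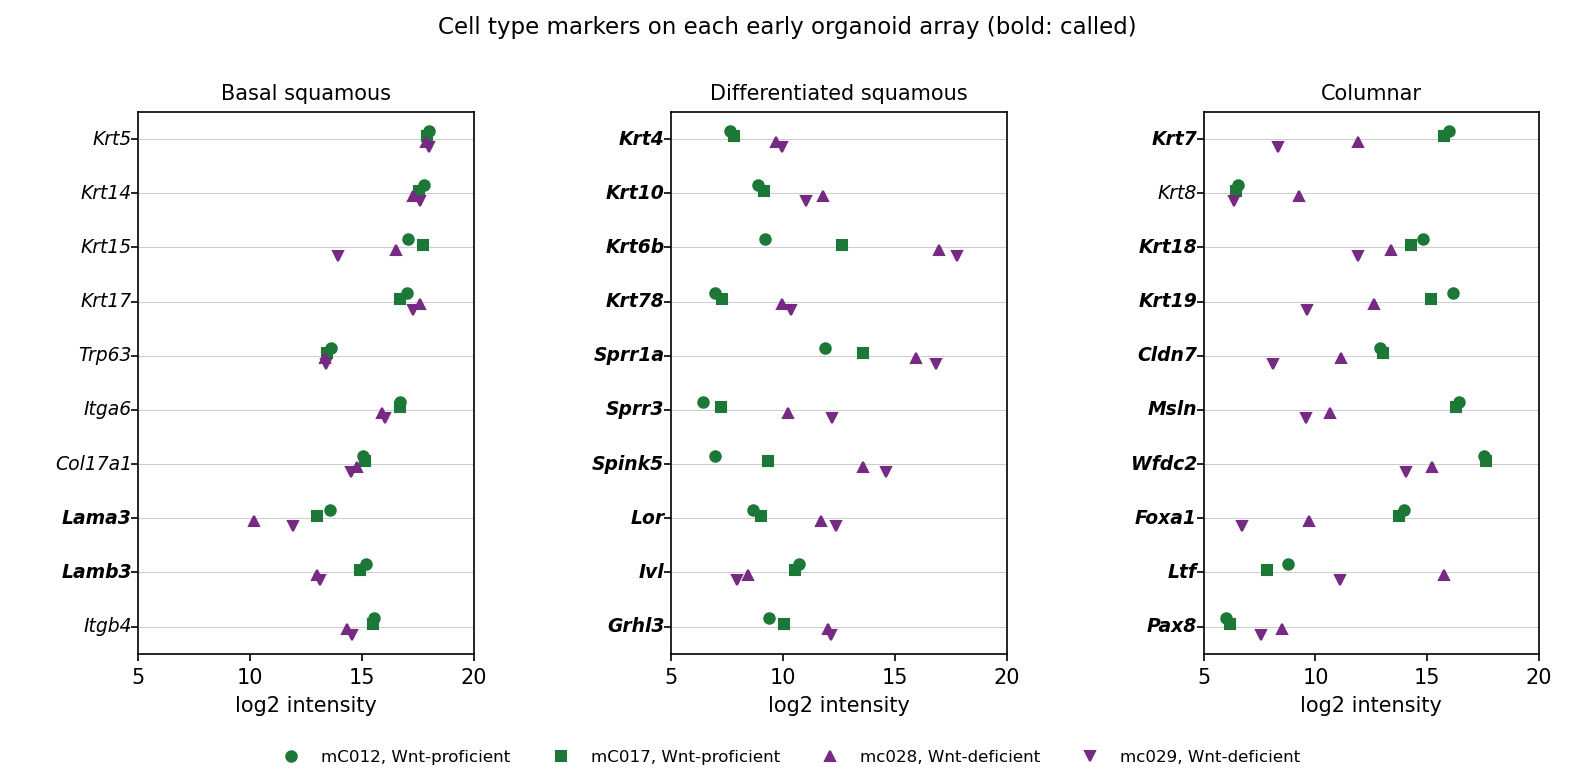
Log2 intensity (x axis) of 10 basal squamous, 10 differentiated squamous and 10 columnar genes on each early organoid array, with green circles for mC012, green squares for mC017 and purple triangles for mc028 (up) and mc029 (down). Called genes are in bold, Krt5 lies near 18 on all 4 arrays, and the columnar genes were called in both directions, with a list median that changes sign under other scalings.

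The pathway that distinguishes the media was read gene by gene. Of 67 fitted genes of the Wnt pathway list 3 rose and 11 fell in Wnt-deficient medium, with a median log2 fold change of -0.23 against -0.03 over all genes. That median ran from -0.26 to 0.00 under the other scalings, and the counts were 1 higher and 7 lower without mC012, 3 and 7 without mC017 and 5 and 10 without mc029, and 3 to 8 higher over the scalings, with 12 of the 14 calls in genes seen in both media. Of 23 Wnt ligand genes 10 were members, 3 of which fell and 0 rose, with a median of -0.09 that reached 0.18 under another scaling (1 higher and 2 lower without mC017 and 1 and 3 without mc029, and 0 to 2 higher over the scalings). Wnt2, Wnt2b, Wnt3, Wnt5b, Wnt10b and Wnt16 and the R-spondin genes Rspo1, Rspo2, Rspo3 and Rspo4 did not reach the level of detection of members. Wnt5a, a ligand that acts mainly without beta-catenin, measured 12.93 and 12.57 in Wnt-proficient medium and 9.42 and 10.42 in Wnt-deficient medium. Wnt5a was lower on mc028 and mc029 without overlap, at -2.83 (adjusted p = 0.00216, standard error 0.31). Wnt11, a ligand of the same class, measured 8.04 and 8.12 against 6.51 and 6.52 and changed by -1.56 (adjusted p = 0.000991, standard error 0.13), and -1.05 (adjusted p = 0.00233) when scaled to the 75th percentile. Wnt6, a ligand of stratified epithelium, measured 9.33 and 9.58 against 7.72 and 7.88, changed by -1.66 (adjusted p = 0.0142, standard error 0.33) and stood at -1.78 without mC012 (adjusted p = 0.0741), -1.53 without mC017 (adjusted p = 0.0745) and -1.58 without mc028 (adjusted p = 0.0675). Wnt4 at 1.44 (adjusted p = 0.0178) and Wnt9a at 1.29 (adjusted p = 0.0156) stayed under the fold-change limit, and Wnt7b at 0.53 (adjusted p = 0.0632) was not called.

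Among 17 receptor genes of the pathway 1 rose and 3 fell, with a median log2 fold change of -0.57 (3 of the 4 calls in genes seen in both media, and 0 higher and 2 lower without mC012, and 1 to 2 higher over the scalings). Fzd7, a Frizzled receptor of epithelial stem cells, measured 10.58 and 9.89 in Wnt-proficient medium and 7.67 and 7.79 in Wnt-deficient medium, and Fzd4, which also binds norrin, 9.63 and 9.32 against 7.54 and 7.25. Neither gene's media overlapped, with mc028 and mc029 lower, and the changes were -2.50 (adjusted p = 0.00126, standard error 0.23) and -2.08 (adjusted p = 0.00398, standard error 0.28). Lgr6, an R-spondin receptor of epithelial stem cells, measured 10.20 and 9.21 in Wnt-proficient medium and 5.93 and 6.34 in Wnt-deficient medium, where it was not well above background. Lgr6 was at least 9.68-fold lower (log2 fold change -3.57, adjusted p = 0.00558, standard error 0.54), and the log2 value was -3.07 without mC012 (adjusted p = 0.0501). Fzd10, another Frizzled receptor, measured 7.55 and 8.51 against 11.13 and 11.44. Fzd10 was the receptor that rose, by 3.26 (adjusted p = 0.00569, standard error 0.50), with 2.77 without mC012 (adjusted p = 0.05). Lgr5, at 6.56 and 6.58 against 5.96 and 5.97, was well above background in Wnt-proficient medium only and was not called (adjusted p = 0.0692), and neither were the co-receptors Lrp5 at -0.11 (adjusted p = 0.694) and Lrp6 at -0.23 (adjusted p = 0.449).

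Of 7 fitted genes listed as inhibitors of the pathway 1 rose and 2 fell, and 2 of the 3 calls were in genes seen in both media. The median log2 fold change of 0.27 reached 1.14 under another scaling. Fewer were called lower without mC012 or without mC017, and 1 to 2 were higher over the scalings. Dkk3, the 1 that rose, is a Dickkopf family member not held to inhibit the pathway as others do, and measured 7.89 and 7.66 in Wnt-proficient medium and 13.20 and 12.47 in Wnt-deficient medium. Dkk3 was higher on both Wnt-deficient arrays, by 5.06 (adjusted p = 0.000932, standard error 0.42). Wif1, which binds and sequesters Wnt proteins, measured 9.74 and 9.99 against 5.94 and 5.92 and was well above background in Wnt-proficient medium only. Wif1 was at least 10.8-fold lower on mc028 and mc029 (log2 fold change -3.94, adjusted p = 0.00210, standard error 0.43). Notum, the esterase that strips the lipid from Wnt proteins, measured 13.15 and 13.33 against 10.52 and 10.34 and changed by -2.81 (adjusted p = 0.0106, standard error 0.52), with -2.90 without mC012 (adjusted p = 0.0695) and -2.71 without mC017 (adjusted p = 0.0564). Dkk1, Dkk2, Dkk4, Sfrp2 and Sfrp4 were not members, and Sfrp1 at 0.60 (adjusted p = 0.218) was not called. Of 14 feedback and target genes 3 fell and 0 rose, with a median of -0.32 (0 higher and 1 lower without mC017 and 0 and 1 without mc028). Tcf7, which encodes the nuclear partner TCF1 and is itself a target, measured 10.32 and 9.75 in Wnt-proficient medium and 7.61 and 7.70 in Wnt-deficient medium. Tcf7 was lower in Wnt-deficient medium without overlap, at -2.38 (adjusted p = 0.00163, standard error 0.24). Rnf43, the ligase that removes Frizzled receptors, measured 11.49 and 11.90 against 9.83 and 10.27 and changed by -1.65 (adjusted p = 0.00874, standard error 0.29), with -1.44 without mC017 (adjusted p = 0.0531) and -1.43 without mc028 (adjusted p = 0.0486). The receptor Tnfrsf19, at 9.02 and 9.39 against 6.65 and 6.71, changed by -2.52 (adjusted p = 0.0161, standard error 0.53) and stood at -2.71 without mC012 (adjusted p = 0.0813), -2.34 without mC017 (adjusted p = 0.0818), -2.50 without mc028 (adjusted p = 0.0715) and -2.55 without mc029 (adjusted p = 0.0594). The target gene Axin2 measured 7.42 and 7.65 in Wnt-proficient medium and 7.13 and 7.34 in Wnt-deficient medium and was not called (-0.30, adjusted p = 0.188). Lef1, above background in Wnt-proficient medium only (adjusted p = 0.0959), Znrf3 at 0.17 (adjusted p = 0.473), Ccnd1 at -1.36 (adjusted p = 0.0144) and Myc at -0.19 (adjusted p = 0.595) were not called either, and Nkd1 and Sp5 were not members. Of 19 intracellular components, beta-catenin (Ctnnb1, -0.75, adjusted p = 0.0308) and Apc (0.49, adjusted p = 0.0635) included, only Dvl3 was called, with a median of 0.13 (0 higher and 0 lower without mC012, 0 and 0 without mC017, 0 and 0 without mc028 and 2 and 0 without mc029, and 1 to 2 higher over the scalings). This Dishevelled adaptor measured 9.0 and 9.38 against 11.03 and 10.54, rose by 1.59 (adjusted p = 0.0245, standard error 0.38) and stood at 1.40 without mC012 (adjusted p = 0.153), 1.78 without mC017 (adjusted p = 0.0682) and 1.34 without mc028 (adjusted p = 0.113).

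The TCF and LEF motif was read as CTTTGAT or CTTTGTT on both strands of the same promoters. It was present in 10.2% of 285 genes called higher, 8.12% of 431 called lower and 7.77% of all 10829. Of 45 promoters of Wnt pathway genes 4 held it, those of Fzd7, Tcf7l2, Tnfrsf19 and Wnt11, and of 11 feedback and target genes 1 did. The shares were not tested. Fzd7, a receptor that fell, has its promoter at chr1:59481897-59482196 (plus strand, GRCm38.p6), with the motif on the minus strand, in capitals.
Fzd7: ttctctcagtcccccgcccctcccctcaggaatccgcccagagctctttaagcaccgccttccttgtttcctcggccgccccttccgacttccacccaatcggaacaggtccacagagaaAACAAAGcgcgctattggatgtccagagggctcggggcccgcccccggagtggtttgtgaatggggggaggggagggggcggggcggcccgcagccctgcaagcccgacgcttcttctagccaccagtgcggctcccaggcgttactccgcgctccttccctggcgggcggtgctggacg

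Notch signalling, which drives squamous cells out of the basal layer, gave no calls by limma with all arrays and the main scaling. The list did not stay without calls when mc029 was left out or under other scalings. Of 22 fitted genes 0 were called and 6 had an unadjusted p under 0.05, against 6487 of 14519 over all genes. The median log2 fold change was 0.13 (0.12 to 0.42 over the scalings). The receptor Notch2 measured 10.23 and 10.22 in Wnt-proficient medium and 11.43 and 11.31 in Wnt-deficient medium. Notch2 did not overlap between media, but its difference of 1.15 (adjusted p = 0.00845, standard error 0.20) stayed under the fold-change limit. Notch1, the receptor of suprabasal cells, measured 8.33 and 8.08 against 8.77 and 8.93 and was not called (0.65, adjusted p = 0.320), nor were the ligand Jag1 at -0.15 (adjusted p = 0.678) and the target Hes1 at 0.52 (adjusted p = 0.264).

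Genes of EGFR and FGF signalling were looked at because both media supply EGF and FGF10. Of 28 fitted genes 1 rose and 5 fell, with a median log2 fold change of -0.14, and the counts were 0 higher and 3 lower without mC012 and 0 and 4 without mc029, and 1 to 2 higher over the scalings. The EGFR ligand epiregulin, Ereg, measured 12.90 and 13.40 in Wnt-proficient medium and 8.17 and 8.12 in Wnt-deficient medium. Amphiregulin, Areg, measured 12.96 and 13.41 against 9.18 and 9.31. Ereg and Areg were both lower on mc028 and mc029 with wide gaps, at -5.01 (adjusted p = 0.000209, standard error 0.26) and -3.94 (adjusted p = 0.00267, standard error 0.47). Epgn, another ligand of the receptor, measured 9.66 and 11.09 against 11.75 and 13.21, rose by 2.10 (adjusted p = 0.0407, standard error 0.59) and stood at 1.39 without mC012 and 1.37 without mc029. Its call ended in 7 of 19 settings, among them these fits, no filter and the 4 early organoid arrays fitted alone. Dusp6, the phosphatase induced by and acting on ERK, measured 15.28 and 15.04 in Wnt-proficient medium and 12.71 and 12.79 in Wnt-deficient medium. Dusp6 was lower on both Wnt-deficient arrays, at -2.41 (adjusted p = 0.000537, standard error 0.17). Etv5, an ETS factor downstream of FGF receptors, measured 13.58 and 13.10 against 11.99 and 11.48 and changed by -1.61 (adjusted p = 0.00558, standard error 0.24), with -1.37 without mC012 (adjusted p = 0.05) and -1.35 without mc029 (adjusted p = 0.0246). Fgfbp1, a carrier of FGFs, measured 13.78 and 13.30 against 11.72 and 11.95 and changed by -1.70 (adjusted p = 0.00525, standard error 0.25), with -1.46 without mC012. Its call ended there and also with the processed signal at a common 75th percentile. Of 6 receptor genes limma called 0, with 1 at an unadjusted p under 0.05, and 1 higher with the probe of largest change per gene. Egfr measured 11.95 and 11.91 against 12.31 and 12.18 (0.32, adjusted p = 0.394), and Fgfr2 was not called at -0.09 (adjusted p = 0.880).

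Of 29 fitted genes of BMP and TGF-beta signalling 1 rose and 7 fell, with a median log2 fold change of -0.35. The counts were 0 higher and 2 lower without mC012, 1 and 3 without mC017 and 0 and 6 without mc028, and 1 to 3 higher over the scalings, with 6 of the 8 calls in genes seen in both media. Tgfb1, the ligand that restrains epithelial growth, measured 12.81 and 12.26 in Wnt-proficient medium and 9.76 and 10.20 in Wnt-deficient medium. Tgfb1 was lower in Wnt-deficient medium without overlap, at -2.56 (adjusted p = 0.00134, standard error 0.24). Id1, a target of BMP receptors that blocks differentiation factors, measured 15.18 and 15.28 against 13.46 and 13.01, and Id3, its paralog, 13.37 and 13.60 against 8.88 and 10.34. Both were lower on mc028 and mc029, Id1 at -1.99 (adjusted p = 0.00234, standard error 0.23) and Id3 at -3.88 (adjusted p = 0.0118, standard error 0.74). Id3 stood at -3.99 without mC012, -3.77 without mC017 and -3.15 without mc028. Its call ended in each of these fits and with the processed signal at a common 75th percentile. The ligand Bmp2, at 10.32 and 10.61 against 7.70 and 8.59, changed by -2.32 (adjusted p = 0.00771, standard error 0.39), with -2.46 without mC012 (adjusted p = 0.0513). Fst, the activin antagonist follistatin, measured 10.01 and 11.55 in Wnt-proficient medium and 13.18 and 14.24 in Wnt-deficient medium. Fst rose by 2.93 (adjusted p = 0.0309, standard error 0.75) and stood at 2.17 without mC012 (adjusted p = 0.186), 3.46 without mc028 (adjusted p = 0.0639) and 2.41 without mc029 (adjusted p = 0.130). The receptors Tgfbr1 at -0.31 (adjusted p = 0.165), Tgfbr2 at -0.47 (adjusted p = 0.118) and Bmpr1a at -0.12 (adjusted p = 0.580) were not called.

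Retinoids shift squamous and columnar fates in the genital tract, and 4 of 13 fitted genes of the retinoid pathway rose and 2 fell, with a median log2 fold change of -0.37 (5 of the 6 calls in genes seen in both media, and 3 higher and 1 lower without mC017, and 1 to 2 lower over the scalings). Crabp2, which carries retinoic acid to its nuclear receptor, measured 11.21 and 10.82 in Wnt-proficient medium and 15.66 and 15.70 in Wnt-deficient medium. Crabp2 was higher on both Wnt-deficient arrays, by 4.67 (adjusted p = 0.000254, standard error 0.26). Stra6, the membrane receptor that takes up retinol, measured 14.91 and 14.78 in Wnt-proficient medium and 10.13 and 10.21 in Wnt-deficient medium. Stra6 went the other way, at -4.67 (adjusted p = 0.00347, standard error 0.61), with tight replicates. Aldh1a3, an enzyme that makes retinoic acid, measured 8.29 and 8.29 against 11.12 and 12.64 and rose by 3.59 (adjusted p = 0.00568, standard error 0.55) without overlap. Aldh1a1, of the same class, measured 8.67 and 9.40 against 7.51 and 7.46 and changed by -1.55 (adjusted p = 0.00882, standard error 0.27), with -1.19 without mC017. Its call ended there and also with the background-corrected signal scaled to the 75th percentile. Lrat, which esterifies retinol for storage, measured 6.12 and 6.04 against 9.55 and 9.58 and was well above background in Wnt-deficient medium only. Lrat was at least 9.99-fold higher (log2 fold change 3.49, adjusted p = 0.00972, standard error 0.63), with 3.53 without mC012 (adjusted p = 0.0694) and 3.45 without mC017 (adjusted p = 0.0510). The receptors Rara at -0.74 (adjusted p = 0.0922) and Rarg at -0.37 (adjusted p = 0.248) were not called.

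Hox genes record the position of a tissue along the body axis, and the posterior ones pattern the genital tract. Of 27 fitted Hox genes 6 rose and 14 fell, with a median log2 fold change of -1.53, which stayed negative under the other scalings (-3.48 to -0.85). That median depends on the filter. Of the 27, 7 were seen in both media, of which 5 rose and 0 fell (median 1.66, and 3 higher and 0 lower without mc028), and 18 were seen in Wnt-proficient medium only, of which 14 were called, all lower, against 126 of 1655 such genes in all. Calls held for 16 of the 20 without each array in turn. By cluster, all fitted genes of clusters A and D were seen in Wnt-proficient medium only and could hardly be called higher. In cluster A 7 of 11 genes fell and 0 rose, and in cluster D 6 of 6 fell. In cluster B 5 of 8 rose, all seen in both media, and 1, seen in Wnt-proficient medium only, fell. A difference between clusters was not tested. Hoxa11, which patterns the uterus and cervix, measured 11.72 and 11.80 in Wnt-proficient medium and 6.04 and 6.02 in Wnt-deficient medium, and its antisense transcript Hoxa11os 13.47 and 13.42 against 6.06 and 6.17. Neither was well above background on mc028 or mc029, so that Hoxa11 was at least 40.5-fold and Hoxa11os at least 130-fold lower there (log2 fold changes -5.73, adjusted p = 2.01e-05, standard error 0.13, and -7.33, adjusted p = 2.79e-05, standard error 0.22). Hoxd13, a gene of the most posterior group, measured 12.36 and 12.17 against 6.42 and 5.86, Hoxb13, of the same group, 10.88 and 11.10 against 5.84 and 5.78, and Hoxa7 11.73 and 12.14 against 6.36 and 6.17. All 3 were above background in Wnt-proficient medium only, and were at least 57-fold, 23.7-fold and 45.6-fold lower in Wnt-deficient medium (adjusted p = 7.84e-05, 2.79e-05 and 2.79e-05). Hoxa10, a uterine patterning gene, measured 9.84 and 9.41 against 5.87 and 5.94 and was at least 9.19-fold lower (adjusted p = 0.000145). Hoxb8 measured 7.77 and 8.10 in Wnt-proficient medium and 12.24 and 11.73 in Wnt-deficient medium, Hoxb2 6.76 and 7.01 against 10.79 and 9.85, and Hoxb4 7.33 and 7.83 against 10.34 and 10.11. These more anterior genes were higher on both Wnt-deficient arrays, by 4.05 (adjusted p = 0.000209, standard error 0.21), 3.44 (adjusted p = 0.00111, standard error 0.30) and 2.65 (adjusted p = 0.00106, standard error 0.23). Hoxc4, at 6.20 and 5.98 against 9.99 and 9.86, was above background in Wnt-deficient medium only and at least 12.8-fold higher (adjusted p = 0.000209). The probes of Hoxa11 (chr6:52192107-52192166, minus strand, mm9) and Hoxa11os (chr6:52199709-52199768, plus strand) lie on opposite strands and share no position.
Hoxa11: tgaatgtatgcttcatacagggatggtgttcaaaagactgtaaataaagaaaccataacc
Hoxa11os: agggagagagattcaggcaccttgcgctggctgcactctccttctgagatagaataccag

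**Figure D3:**
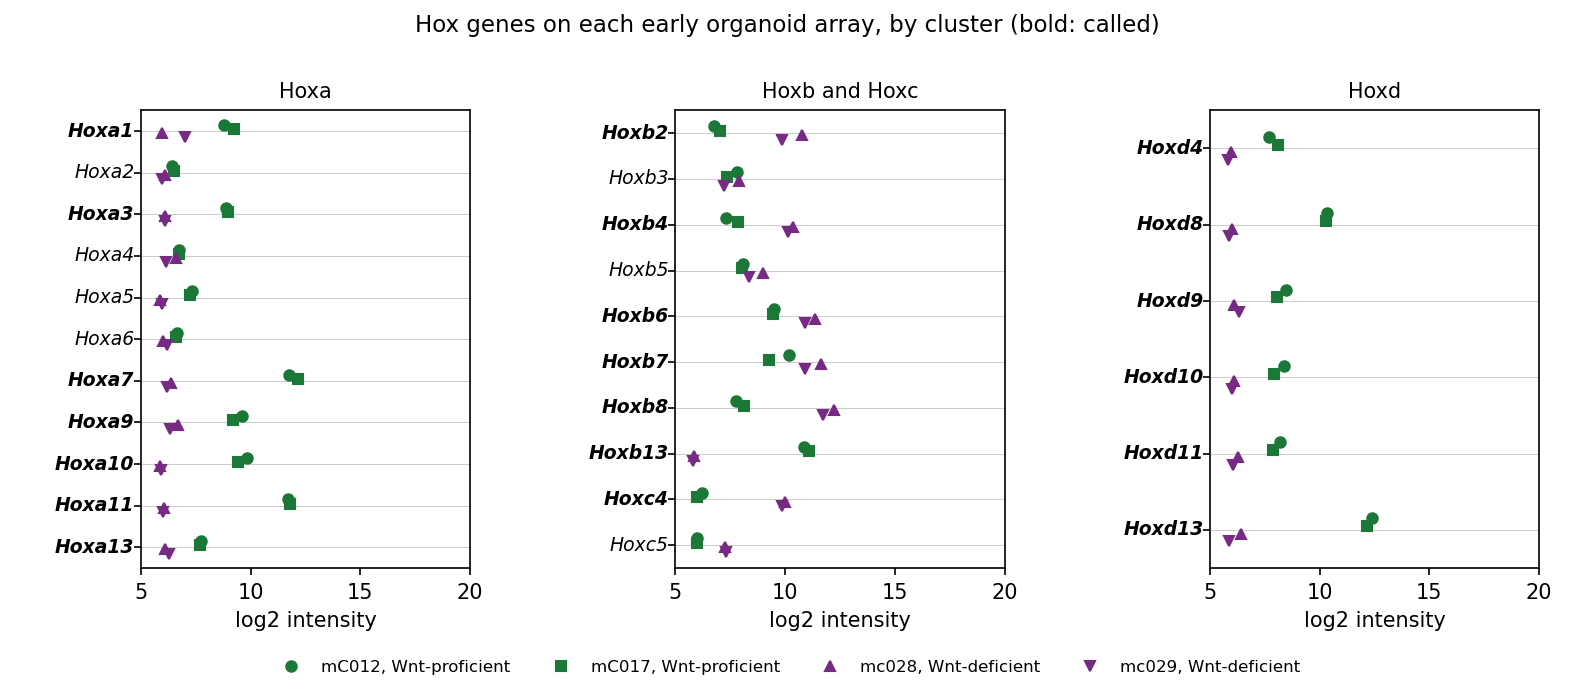
Log2 intensity (x axis) of the 27 Hox genes with a fitted difference on each early organoid array, by cluster, with green symbols for the Wnt-proficient and purple symbols for the Wnt-deficient arrays and called genes in bold. In clusters A and D 13 genes were called, all lower in Wnt-deficient medium and all seen in Wnt-proficient medium only, and in cluster B 5 were higher and Hoxb13 lower.

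Other patterning genes were read with them. Of 25 fitted genes of the genital tract patterning list 6 rose and 12 fell, with a median log2 fold change of -1.18, and the counts were 3 higher and 11 lower without mC017. Of the 25, 10 were seen in both media, of which 3 rose and 0 fell (median -0.06, reaching 0.09 under another scaling, and 1 higher and 0 lower without mC017), so that the median of the list depends on the filter, and all 12 falls were in genes seen in Wnt-proficient medium only. The list shares Hox genes with that family. Irx1, an Iroquois homeobox gene, measured 5.93 and 7.80 in Wnt-proficient medium and 14.29 and 13.78 in Wnt-deficient medium. Irx1, detected on only 1 of 2 Wnt-proficient arrays, was higher on both Wnt-deficient arrays, by 7.17 (adjusted p = 0.000693, standard error 0.53), and its neighbour Irx2, at 8.82 and 8.82 against 11.09 and 11.37, by 2.41 (adjusted p = 0.00341, standard error 0.31). Tbx3, a T-box repressor, measured 13.46 and 13.30 in Wnt-proficient medium and 6.18 and 7.22 in Wnt-deficient medium. Tbx3, detected on only 1 of 2 Wnt-deficient arrays, was lower on mc028 and mc029 at -6.68 (adjusted p = 0.000209, standard error 0.34), without overlap. Emx2, needed for the genital ducts to form, measured 5.88 and 6.15 against 8.60 and 8.30 and was at least 4.61-fold higher in Wnt-deficient medium (log2 fold change 2.44, adjusted p = 0.000636, standard error 0.18). The oestrogen receptor gene Esr1 measured 7.65 and 7.27 in Wnt-proficient medium and 9.36 and 9.11 in Wnt-deficient medium and rose by 1.77 (adjusted p = 0.00883, standard error 0.31), with 1.59 without mC017 (adjusted p = 0.0537). Its target Pgr, the progesterone receptor gene, measured 5.88 and 5.72 against 10.36 and 10.22, at least 16.5-fold higher (log2 fold change 4.49, adjusted p = 0.0197, standard error 1.0), and stood at 4.57 without mC012 (adjusted p = 0.107), 4.41 without mC017 (adjusted p = 0.0849), 4.42 without mc028 (adjusted p = 0.0825) and 4.56 without mc029 (adjusted p = 0.0686).

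Laminins and type IV collagens form the basement membrane under the epithelium. Of 7 laminin chains 4 fell and 0 rose, with a median log2 fold change of -1.52 (0 higher and 2 lower without mC012). The basement membrane collagen Col4a2 measured 10.84 and 10.02 in Wnt-proficient medium and 6.0 and 6.19 in Wnt-deficient medium, and its partner chain Col4a1 9.97 and 9.28 against 6.02 and 5.95. Both were above background in Wnt-proficient medium only and at least 16.1-fold and 9.16-fold lower in Wnt-deficient medium (log2 fold changes -4.34, adjusted p = 0.000938, standard error 0.36, and -3.63, adjusted p = 0.00345, standard error 0.47). Col4a5, at 9.71 and 9.84 against 7.43 and 6.92, changed by -2.60 (adjusted p = 0.00226, standard error 0.29) without overlap. Of 19 collagens 2 rose and 3 fell, with a median of -0.31 that reached 0.73 under another scaling (2 of the 5 calls in genes seen in both media, and 1 higher and 3 lower without mC017 and 1 and 3 without mc029, and 2 to 5 higher and 3 to 5 lower over the scalings). Timp2, an inhibitor of matrix proteases, measured 15.18 and 15.07 in Wnt-proficient medium and 9.47 and 9.34 in Wnt-deficient medium. Timp2 was lower on both Wnt-deficient arrays, with close replicates, at -5.72 (adjusted p = 6.61e-05, standard error 0.21). Thbs2, a matrix protein that binds cell surface receptors, measured 13.30 and 13.03 against 8.30 and 8.76 and changed by -4.64 (adjusted p = 0.000500, standard error 0.32). Of 17 integrins limma called 0 with all arrays and the main scaling, which did not hold without mc028 or without mc029. Among the 17, 10 had an unadjusted p under 0.05, and the median of -0.64 ran from -0.77 to -0.20 over the scalings.

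Most fibroblast and muscle markers were not detected as members. Of 18 fibroblast and muscle genes 12 were not members, among them Col1a2, Col3a1, Dcn, Lum, Pdgfra and Pdgfrb. The mean level of the 5 others with a value on all 4 arrays was 8.65 and 8.07 in Wnt-proficient medium and 6.96 and 7.27 in Wnt-deficient medium, with Fn1 the brightest. Col1a1, a fibroblast collagen, measured 6.62 and 6.48 in Wnt-proficient medium and 6.33 and 6.17 in Wnt-deficient medium, and the mesenchymal filament gene Vim 6.84 and 6.43 against 6.04 and 5.97. Neither was well above background in Wnt-deficient medium or called (adjusted p = 0.179 and 0.0958). Of 5 fitted genes of the list 1 fell and 0 rose (0 higher and 2 lower without mC017, and 1 to 2 lower over the scalings). Twist2, a mesenchymal transcription factor, measured 11.37 and 10.87 against 7.73 and 8.17, lower on mc028 and mc029 without overlap, at -3.17 (adjusted p = 0.000788, standard error 0.25). The median of the list, -0.63, reached 0.42 under another scaling. Tagln, a smooth muscle gene, measured 10.34 and 9.87 in Wnt-deficient medium and had no value in Wnt-proficient medium, where its spots carried outlier marks. Ptprc, Adgre1, Lyz2, Cdh5, Tek and Vwf were not members. Of 2 endothelial genes limma called 0, with 1 at an unadjusted p under 0.05 and a median of 0.35, and of 5 immune genes 1 was called, with a median of 0.14. The mean level of the immune genes was 8.87 and 8.97 in Wnt-proficient medium and 9.28 and 9.26 in Wnt-deficient medium, with Itgam the brightest. What such cells add to the differences was not tested. Csf1r, the macrophage growth factor receptor gene, measured 7.51 and 7.77 against 9.94 and 9.35, rose by 2.0 (adjusted p = 0.0402, standard error 0.56) and stood at 1.87 without mC012 (adjusted p = 0.191), 2.13 without mC017 (adjusted p = 0.116), 1.70 without mc028 (adjusted p = 0.163) and 2.29 without mc029 (adjusted p = 0.0788). Ribosomal RNA also differed. Rn18s, the 18S rRNA gene, measured 12.59 and 14.44 in Wnt-proficient medium and 17.46 and 17.86 in Wnt-deficient medium. Rn18s was higher on mc028 and mc029, by 4.15 (adjusted p = 0.00379, standard error 0.55), and was chosen after its values were seen.

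Epithelial cytokines and alarmins moved both ways. Of 22 fitted genes 5 rose and 3 fell, with a median log2 fold change of 0.63, and the counts were 1 higher and 1 lower without mC012, 3 and 3 without mC017, 5 and 1 without mc028 and 3 and 1 without mc029, and 5 to 10 higher and 1 to 3 lower over the scalings. Of the 22, 13 were seen in both media, of which 3 rose and 1 fell (median 0.13, and 1 higher and 0 lower without mC012, 2 and 0 without mc028 and 2 and 0 without mc029). Tslp, an epithelial alarm cytokine, measured 16.09 and 15.26 in Wnt-proficient medium and 7.14 and 6.33 in Wnt-deficient medium. Tslp, detected on only 1 of 2 Wnt-deficient arrays, was lower on both Wnt-deficient arrays, at -8.95 (adjusted p = 0.000336, standard error 0.54). S100a8, a subunit of the antimicrobial protein calprotectin, measured 6.77 and 7.0 against 10.73 and 13.46 and rose by 5.21 (adjusted p = 0.00538, standard error 0.78), the 1 call among 15 S100 genes with the main scaling (median -0.12, reaching 0.17 under another scaling, and 2 higher and 0 lower without mc028, and 1 to 4 higher over the scalings). Its partner S100a9 was not called (2.02, adjusted p = 0.103). Defb14, a beta-defensin, measured 6.81 and 7.49 in Wnt-proficient medium and 12.17 and 13.88 in Wnt-deficient medium. Defb14 was higher on mc028 and mc029 by 5.88 (adjusted p = 0.00151, standard error 0.57). The neutrophil attractant Cxcl5 measured 5.92 and 7.04 against 10.77 and 11.34, was detected on only 1 of 2 Wnt-proficient arrays, rose by 4.57 (adjusted p = 0.0134, standard error 0.91) and stood at 4.01 without mC012 (adjusted p = 0.102), 4.86 without mc028 (adjusted p = 0.0513) and 4.29 without mc029 (adjusted p = 0.0604). Il18, a cytokine stored in epithelium, measured 7.09 and 7.20 against 8.88 and 10 and rose by 2.29 (adjusted p = 0.00596, standard error 0.35), with 2.24 without mC012 (adjusted p = 0.0534). Il1a, of the same family, measured 8.65 and 8.37 against 6.66 and 6.65, changed by -1.85 (adjusted p = 0.0131, standard error 0.36) and stood at -1.71 without mC012 (adjusted p = 0.0974), -1.86 without mc028 (adjusted p = 0.0583) and -1.85 without mc029 (adjusted p = 0.0514). Il33 at -1.69 (adjusted p = 0.206) was not called, nor was Ccl2, above background in Wnt-deficient medium only (adjusted p = 0.0817). Interferon response genes gave 0 calls by limma among 15, with 1 at an unadjusted p under 0.05 and a median of -0.64 that reached 0.16 under another scaling. Isg15 measured 8.89 and 8.19 against 9.25 and 8.30, overlapping between media, and was not called (0.23, adjusted p = 0.916).

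Proliferation genes were read in the same way. Of 24 fitted cell cycle genes limma called 0 (1 higher with the probe of largest change per gene), against 957 of 14519 over all genes. An unadjusted p under 0.05 was found for 4, against 6487 of 14519. The median log2 fold change was 0.35, against -0.03 over all genes. The mean level of the cell cycle genes was 12.73 and 12.94 in Wnt-proficient medium and 13.25 and 13.18 in Wnt-deficient medium, without overlap. Mki67, the proliferation marker, measured 14.27 and 14.51 in Wnt-proficient medium and 14.03 and 14.24 in Wnt-deficient medium and was not called (-0.26, adjusted p = 0.658), nor was the topoisomerase gene Top2a (0.35, adjusted p = 0.604). Of 14 inhibitors of the cycle and senescence genes 1 was called, with a median of -0.10 (1 higher and 1 lower without mc028, and 0 to 1 higher over the scalings). Glb1, the lysosomal beta-galactosidase gene, measured 11.70 and 11.15 against 9.61 and 9.63, lower in Wnt-deficient medium without overlap, at -1.80 (adjusted p = 0.00190, standard error 0.19). Cdkn1a at -0.31 (adjusted p = 0.420) and Cdkn2a at 0.20 (adjusted p = 0.775) were not called. Of 18 stress response genes 1 was called, with a median of 0.32 (0 higher and 0 lower without mC012, 0 and 2 without mC017, 2 and 0 without mc028 and 0 and 0 without mc029, and 1 to 2 lower over the scalings). The pseudokinase gene Trib3 measured 12.09 and 10.49 against 9.52 and 9.11, changed by -1.97 (adjusted p = 0.0282, standard error 0.49) and stood at -1.17 without mC012 (adjusted p = 0.104), -2.18 without mc028 (adjusted p = 0.0766) and -1.76 without mc029 (adjusted p = 0.111).

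Of 18 glutathione S-transferases 4 rose and 0 fell, with a median log2 fold change of 1.02 (3 of the 4 calls in genes seen in both media, and 2 higher and 0 lower without mC012 and 2 and 0 without mC017, and 4 to 7 higher and 0 to 1 lower over the scalings). Gstm1, which conjugates glutathione, measured 10.87 and 10.91 in Wnt-proficient medium and 13.30 and 13.27 in Wnt-deficient medium, and Gstm3 8.36 and 8.12 against 9.98 and 10.17. Both were higher on mc028 and mc029, by 2.40 (adjusted p = 0.00259, standard error 0.28) and 1.83 (adjusted p = 0.00173, standard error 0.19). Of 19 aldehyde dehydrogenases 2 rose and 4 fell, with a median of -0.20 (5 of the 6 calls in genes seen in both media, and 2 higher and 1 lower without mC012, 2 and 2 without mc028 and 2 and 2 without mc029, and 2 to 4 higher over the scalings). Aldh1l1, an enzyme of folate metabolism, measured 6.01 and 6.78 against 11.26 and 11.81, was detected on only 1 of 2 Wnt-proficient arrays and rose by 5.14 (adjusted p = 0.000481, standard error 0.35) without overlap.

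Among genes above background on all 4 arrays the largest rise was that of Calml3, a calmodulin-like protein of stratified epithelium. Calml3 (probe at chr13:3802177-3802236, mm9) measured 6.50 and 7.02 in Wnt-proficient medium and 14.96 and 15.60 in Wnt-deficient medium, higher on mc028 and mc029 by 8.52 (adjusted p = 0.000908, standard error 0.70). The largest fall was that of Cd34, a sialomucin of progenitor and endothelial cells. Cd34 (probe at chr1:196787392-196787451, mm9) measured 15.34 and 13.58 in Wnt-proficient medium and 6.97 and 7.87 in Wnt-deficient medium, lower on both Wnt-deficient arrays at -7.04 (adjusted p = 0.00133, standard error 0.66). Of the 15 largest falls, Egln3, a prolyl hydroxylase gene, measured 13.27 and 13.58 against 8.65 and 8.0, Bnip3, a mitochondrial membrane protein gene, 13.62 and 13.93 against 9.14 and 9.51, and Ndufa4l2, another mitochondrial protein gene, 11.49 and 11.66 against 6.78 and 7.63. Their values were lower in Wnt-deficient medium without overlap, Egln3 at -5.10 (adjusted p = 0.000568, standard error 0.36), Bnip3 at -4.44 (adjusted p = 0.000726, standard error 0.34) and Ndufa4l2 at -4.37 (adjusted p = 0.000962, standard error 0.37). Tuba8, an alpha-tubulin, measured 6.42 and 6.37 against 12.51 and 11.92 and rose by 5.82 (adjusted p = 0.000765, standard error 0.44). Sel1l3, a transmembrane protein gene, measured 11.92 and 11.77 against 7.68 and 6.92, and Hid1, which acts in the Golgi, 11.85 and 10.99 against 7.01 and 6.77. Both were lower in Wnt-deficient medium without overlap, at -4.54 (adjusted p = 0.000254, standard error 0.26) and -4.53 (adjusted p = 0.000310, standard error 0.27). Among genes above background in 1 medium only, the water channel Aqp5 measured 6.04 and 6.11 in Wnt-proficient medium and 10.87 and 11.09 in Wnt-deficient medium, and the LIM protein gene Crip1 6.30 and 6.31 against 11.37 and 11.34. Aqp5 was at least 26.7-fold and Crip1 at least 33.1-fold higher on mc028 and mc029 (adjusted p = 0.000254 and 0.000182). Nrn1, which encodes the membrane-anchored protein neuritin, measured 10.86 and 10.33 against 6.28 and 6.34 and was at least 18-fold lower (adjusted p = 0.000145). Gpnmb, a lysosomal and surface glycoprotein, measured 11.13 and 11.54 against 6.23 and 6.21 and was at least 30.1-fold lower (log2 fold change -5.12, adjusted p = 0.00723, standard error 0.84), with -5.33 without mC012 (adjusted p = 0.0522).

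The same mice gave differentiated organoids in the same media, and the medium difference was set against theirs. They were taken at passage 4 (mC012) and 1 (mC017), against 15 and 10 for the early organoids, while mc028 and mc029 were at passage 2 in both, so that stage and passage cannot be told apart here. Of the 957 genes called in early organoids, 628 were called in the same direction in differentiated organoids, and 2 in the opposite direction. The 628 are 65.6% of the genes called in early organoids and 45.5% of the 1381 genes of the same table called in differentiated organoids. The difference between the 2 medium differences was called for 235 of 14517 genes (1.62%), 66 of them among the 957, and in 41 of those 66 the early organoid difference was the larger. The 957 were chosen by early organoid values that also enter this test, so that the 41 of 66 do not show which stage differs more. Dkk3 measured 7.89 and 7.66 against 13.20 and 12.47 in early organoids and 10.85 and 11.88 against 12.72 and 11.94 in differentiated organoids. The medium difference of Dkk3 was 5.06 at the early and 0.96 at the late stage, and they differed by 4.10 (adjusted p = 0.0272). Lor measured 9.58 and 10.33 against 16.16 and 16.55 in differentiated organoids, where its medium difference of 6.4 exceeded that of early organoids, and the 2 differed by -3.20 (adjusted p = 0.0270). Rn18s, with 17.35 and 17.26 against 16.30 and 17.06 in differentiated organoids, had a medium difference of -0.62 there, which differed from the early value by 4.77 (adjusted p = 0.0358). The call between stages held for Rn18s only without mC017 of the early organoids, and ended without each of the other 7 arrays. For Dkk3 and Lor it held without mc029 of the early and without mC012 or mC017 of the differentiated organoids, and ended without each of the other 5. Without mC012 in early organoids the number of probes with a called difference between stages was 28 in place of 424. With the mouse as a fixed block 268 probes were called, and the calls of Dkk3, Lor and Rn18s held.

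**Figure D4:**
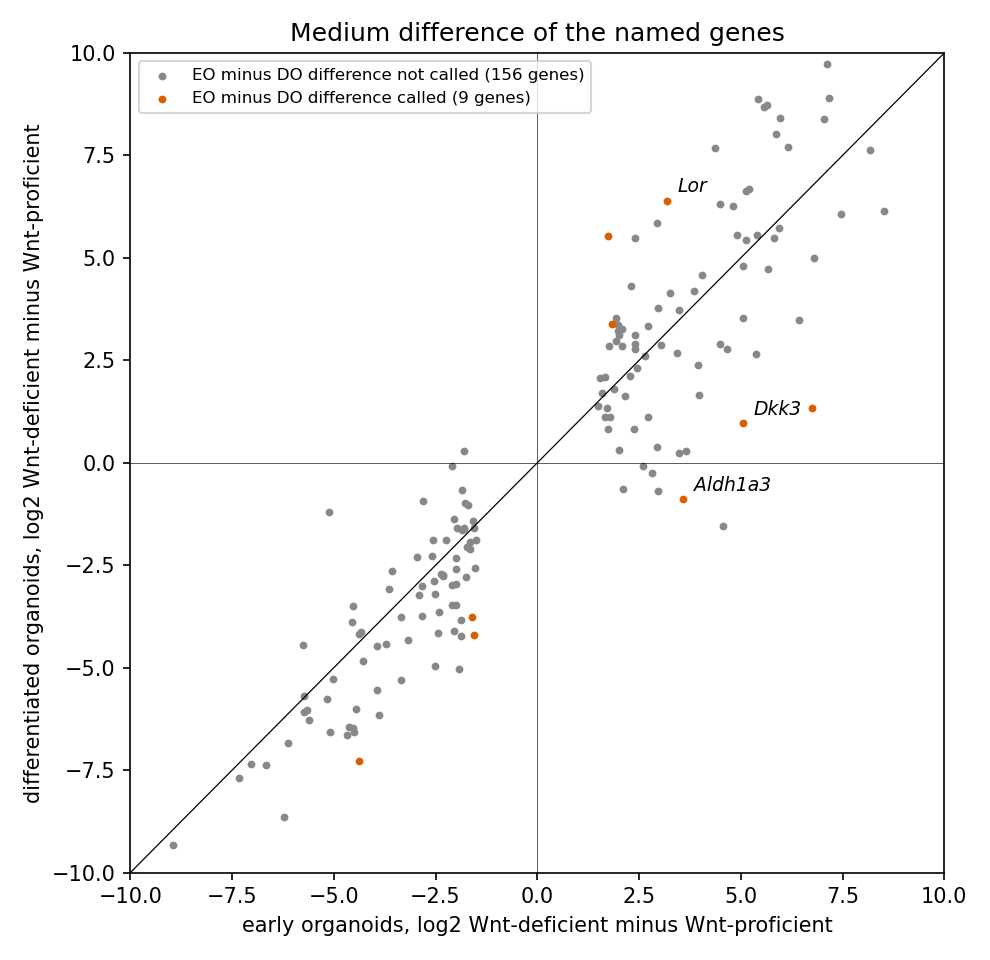
Log2 fold change between media in early organoids (EO, x axis) and in differentiated organoids (DO, y axis) for the 165 named genes, with the line of equal values. Labels are given for Dkk3, Aldh1a3 and Lor, and orange points mark the 9 genes whose 2 medium differences differed by the interaction test. Of the 957 genes called in early organoids 66 did, and over all genes 235 of 14517 (1.62%). The named genes were chosen by early organoid values that enter this test. Dkk3 and Aldh1a3 had the larger difference in early organoids, with calls between stages that end without single arrays.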

How the data were processed

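Cy3-labelled RNA of 8 mouse organoid cultures was hybridized to single-colour Agilent arrays. Per the file headers the arrays were of a mouse design, although the text of the series names human arrays. The authors read the scans with Agilent Feature Extraction 11.5.1.1, and the deposited intensity of each spot is its raw brightness, with the local background and a background-subtracted signal beside it. The log2 values that the authors also deposited had been background-corrected and quantile-normalized, with array medians of 5.67 to 5.68.

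Control and outlier spots were left out. Mean intensities were corrected for local background (normexp, offset 50), log2-transformed and quantile-normalized over the 8 arrays, and spots of a probe were averaged. The order of the log2 and quantile steps was settled after the counts of both orders had been seen. A model of the 4 groups, with 2 arrays each, was fitted with limma 3.58.1 in R 4.3.3 (files read with the data.table package, version 1.17.8) to the 29423 probes detected in at least 1 group, and p values were adjusted over them by the Benjamini-Hochberg method. The residual spread had 4 degrees of freedom and the prior 3.14. The steps were tested on simulated data. Gene names came from GRCm38.p6 for 17119 members and from the array files for 2381, and 7465 were unnamed. A gene is represented by its probe with the highest mean over the 8 arrays. The number of arrays limits the precision.

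Members, the 16 gene lists and the 14 families were chosen with earlier results of these data known. Named genes were the 15 greatest changes each way among called genes detected on all 4 arrays, the 8 greatest bounds each way among genes detected in 1 medium, both without predicted and clone symbols, and called members of the lists and families. Genes not called are named as members of a list. The alternatives tried were other background corrections, scalings, filters and sets of arrays, the deposited log2 values, a mouse block (by the labels both stages came from every mouse), another probe per gene and the other order of steps. Some genes of these lists are not reported here.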

Additional observations from a re-analysis of the deposited data

Results flagged for a closer look

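The 165 named genes were chosen for a called difference in early organoids. For 9 of them, against 66 of the 957 genes called in early organoids and 235 of 14517 genes in all (1.62%), the medium difference was called as different between early and differentiated organoids. The early organoid values that chose the 165 also enter this test, so that their share cannot be read against that of all genes. The test was limma's, of the difference between stages in Wnt-deficient minus Wnt-proficient. In log2 units, early minus differentiated, it was, among others, 4.1 for Dkk3, 4.48 for Aldh1a3, 2.92 for Ndufa4l2, 2.66 for Aldh1a1, 2.17 for Etv5, -1.56 for Gstm3, -3.2 for Lor and -3.8 for Rptn. In Dkk3 and Aldh1a3 the difference in early organoids was the larger in size. Every one of these calls ended without single arrays, Gstm3 without each of the 8, Etv5 and Ndufa4l2 in 7 of 8 cases, Aldh1a3 and Rptn in 6, Dkk3 and Lor in 5 and Aldh1a1 in 4. With the mouse as a fixed block Etv5, Gstm3 and Rptn were not called (adjusted p = 0.0803, 0.0740 and 0.0707) and the other 5 were. The Wnt-proficient mice were at passages 15 and 10 in early and 4 and 1 in differentiated organoids, so that stage and passage cannot be told apart. The number of probes with such a call was 28 in place of 424 without mC012 of the early organoids. No explanation was tested.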

How the results depend on the processing

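No call of the 1439 probes or of the 165 named genes changed direction under any alternative. With the processed signal at a common 75th percentile, 3921 probes were called in early organoids, 2366 higher and 1555 lower, 4427 in differentiated organoids, and 732 for the difference between stages. With the background-corrected signal scaled to the 75th percentile, 2483 were called in early organoids, 1757 of them higher. The cause was not tested. Without each of the 8 arrays in turn, the count in early organoids ran from 819 to 1491, with 354 to 723 higher and 465 to 768 lower, and the lowest came without mC012. Differentiated organoids gave 1965 to 2399. The count for the difference between stages ran from 28 without mC012 of the early organoids to 494. There the lone array of a group is assumed to vary like the other groups. No paired analysis of the medium difference was possible because no mouse was grown in both media. With the mouse as a replicate block (correlation -0.036) 1437 probes were called in early organoids and 371 for the difference between stages, where mice pair the arrays. There the mouse as a fixed block, chosen after seeing the data, gave 268.

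An offset of 16 gave 2053 calls, the deposited log2 values 2099, no filter 1315, a filter on all 8 arrays 1080, adjustment over the members alone 1454, the 4 early organoid arrays fitted alone 1486, and the same arrays also normalized alone 1635. Quantile normalization before the log2 step, an alternative chosen after seeing the data, gave 1538.

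Of the 165 named genes 78 were called in every setting that gave them a value, and 87 lost their call in at least 1. Calls lost were 74 without mC012, 49 without mC017, 45 without mc028, 41 without mc029, 29 without a filter, 14 and 10 under the 75th percentile scalings. The filter on all 8 arrays gave a value for 98 of the 165. With the probe of largest change per gene, basal squamous genes gave 2 called higher in place of 0, cell cycle genes and EGFR and FGF receptors 1 called higher each in place of 0, and small proline-rich, S100 and intracellular Wnt genes 1 called lower each in place of 0. Under other scalings cell cycle, Notch pathway and EGFR and FGF receptor genes gave up to 1 called higher, and integrins and interferon response genes up to 2, in place of 0. Signal over background limits fold changes of probes dim in 1 medium, and these are lower bounds for the main scaling with all arrays only.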
